A study of Mus musculus with 7 samples.

Results

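The 9 genes described here carry the adrenergic signal of the heart from receptor to kinase: the receptors Adrb1, Adra1a and Adra1b, the stimulatory G protein gene Gnas, the adenylyl cyclases Adcy5 and Adcy6, the phosphodiesterases Pde3a and Pde4b, and the protein kinase A catalytic subunit Prkaca. They were chosen by name, through the transcript that each array probe carries in the scanner files. They were found on 19 of 55681 probes, and all 9 were kept among the 13697 named genes with a probe above background. Expression was measured on 1-colour Agilent microarrays in RNA from the apex of 7 hearts of male C57BL/6 mice. The 4 control hearts were homozygous p38α flox/flox, with exons 2 and 3 of Mapk14 between loxP sites. The 3 knockout (KO) hearts had the same floxed alleles and were heterozygous for mercremer, a Cre recombinase that tamoxifen activates, driven in cardiomyocytes by the α-MHC promoter. Both groups were given hydroxytamoxifen at the age of 6 weeks, 500 µg daily over 10 days. In both, minipumps delivered 1.5 mg/kg/day of angiotensin II, which raises blood pressure, during the last 48 hours, and the animals were 3 months old at harvest. There was no group without angiotensin II, and Cre was present in the KO group only, so the deletion and the Cre protein cannot be told apart.

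As background, noradrenaline and adrenaline act on cardiomyocytes through β1-adrenergic receptors, which couple through the stimulatory G protein to adenylyl cyclase and so raise cAMP. The cAMP activates protein kinase A (PKA), which phosphorylates calcium-handling and contractile proteins and raises the force and rate of contraction, while phosphodiesterases break cAMP down again. The α1-adrenergic receptors couple instead to phospholipase C, as the angiotensin II receptor does.

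All values below are log2 signals relative to the 75th percentile of the same array, so 0 is that percentile and a difference of 1 is a doubling. A gene is called where limma's adjusted p (Benjamini-Hochberg over 22344 features) is below 0.05. The 7 arrays shared 1 slide, and between 46.0% and 49.7% of their probes stood well above background. Mapk14, the gene deleted in cardiomyocytes, was not lower: its brighter probe differed by 0.22 between KO and control (adjusted p = 0.202), and the position of the probe relative to exons 2 and 3 was not analysed here. A probe for Esr1, whose ligand-binding part is contained in the mercremer protein, was above background in 3 of 3 KO hearts and in 0 of 4 controls, in the order the labels give. The cardiomyocyte markers were present in every heart. Markers of hepatocytes, which the heart lacks, were also measured in the controls: the summed signal of 6 of them was 1.72 to 5.94 times the 75th percentile in controls and 0.196 to 0.327 in KO hearts, and all 6 were called lower. Of these, Alb, Fgg, Mup19, Saa2 and Ttr passed the filter on dim probes only through the controls, so their calls are no support for a change. The median difference of the list was -4.36, and -1.72 with normexp background correction. Only 1 marker was measured when signal on all arrays was asked for. The p-values measure the spread between the 7 hearts, which the labels name as separate samples, and the small number of arrays limits the precision of every value.

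In KO hearts 4 of the 9 genes fell (Adra1a, Adcy5, Adcy6 and Prkaca), 1 rose (Pde4b) and 4 did not pass the test (Adrb1, Adra1b, Gnas and Pde3a). A share of 25.2% of all features was called (15.0% lower and 10.2% higher), and 28.3% of named genes (15.9% lower and 12.3% higher). By probe, 10 of the 18 probes kept for the 9 genes were called (8 lower and 2 higher), where 25.5% of all kept probes were. The Adra1a probe and the dimmest Pde4b probe, both among the 8 lower, passed the filter on dim probes only through the controls. Their falls were therefore partly set by that filter. Probes of 1 gene are not separate units: the 10 include all 3 of Adcy5 and all 3 of Pde4b, so this share counts some genes repeatedly. The median log2 difference of the 9 genes was -0.47, against -0.06 over all features, and 8 of the 9 differences were negative. Adra1a was kept only through the controls, being at background in the KO hearts, so its fall was partly set by the filter on dim probes; the other 8 had 3 falls and 1 rise. The values of KO and control hearts did not overlap for 6 of the 9, where 39.0% of all features and 42.2% of named genes showed no overlap. Adra1a is among these 6 and also enters the median and the count of negative differences above. Some calls were lost when a heart was left out, although no difference among the 5 called genes then moved by over 1.5-fold: Adcy5 stayed between -1.41 and -1.16 and Prkaca between -0.99 and -0.66. Without KO replicate 1 none of the 9 passed limma's test, with 6 at an unadjusted p below 0.05. Without KO replicate 2 or control replicate 4, Adcy5 passed alone or with Adra1a, and without control replicate 3 the genes called were Adcy5, Adcy6 and Adra1a. In bulk tissue, fewer cells of a type and less RNA per cell cannot be told apart.

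**Figure D1:**
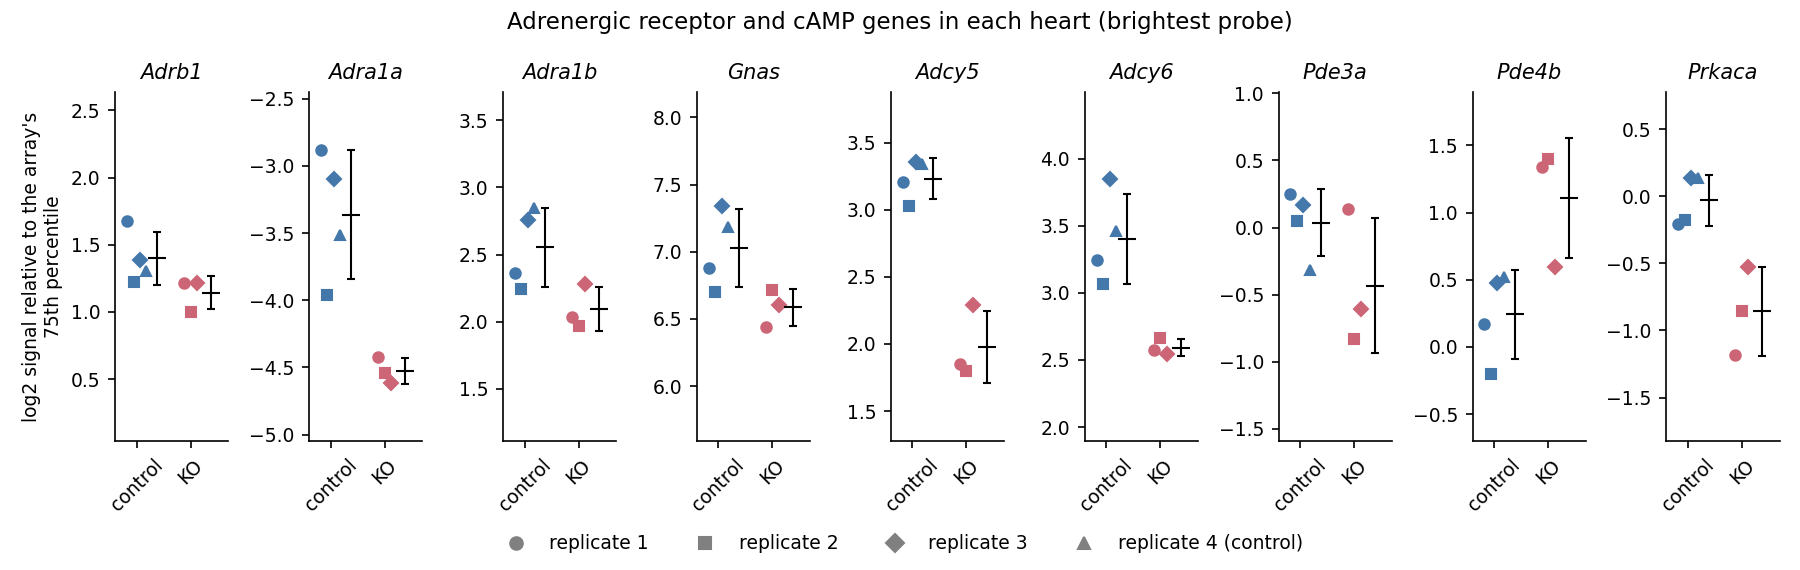
Log2 signal of the 9 genes relative to each array's 75th percentile (vertical axes, 1 panel per gene, each with its own start) in the 4 control and 3 KO hearts. Points are hearts, with shapes for replicate numbers, and bars are the group mean ± 1 SD; Adcy5 lies between 3.03 and 3.36 in controls and between 1.80 and 2.29 in KO hearts, while Gnas and Pde3a overlap.

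The promoters of 3 of the called genes are shown because Adcy5 and Prkaca had the highest correlation across hearts of any pair among the 9 and Pde4b moved the opposite way. Each is the 250 bases before an annotated start, from RefSeq on GRCm38.p6, in the direction of the gene, with TGACG (the core of the cAMP response element) and GGGCGG (the GC box) in capitals on either strand.
Adcy5, chr16:35154614-35154863, plus strand: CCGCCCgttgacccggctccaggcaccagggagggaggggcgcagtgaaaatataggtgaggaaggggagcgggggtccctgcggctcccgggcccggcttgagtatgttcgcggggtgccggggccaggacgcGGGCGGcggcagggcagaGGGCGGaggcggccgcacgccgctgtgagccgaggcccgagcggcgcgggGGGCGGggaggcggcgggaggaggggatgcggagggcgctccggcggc
Prkaca, chr8:83972728-83972977, plus strand: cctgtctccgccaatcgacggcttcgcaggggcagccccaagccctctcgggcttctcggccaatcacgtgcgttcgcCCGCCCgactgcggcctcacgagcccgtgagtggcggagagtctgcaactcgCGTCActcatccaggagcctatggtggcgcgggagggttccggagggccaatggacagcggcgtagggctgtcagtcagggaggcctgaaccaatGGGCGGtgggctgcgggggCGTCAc
Pde4b, chr4:102421305-102421554, plus strand: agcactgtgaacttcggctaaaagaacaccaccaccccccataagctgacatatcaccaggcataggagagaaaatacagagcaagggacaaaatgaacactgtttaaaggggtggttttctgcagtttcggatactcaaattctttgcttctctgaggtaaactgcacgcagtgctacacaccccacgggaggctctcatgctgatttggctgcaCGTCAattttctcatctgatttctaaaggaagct

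The Adcy5 window is 78.0% G and C and holds 4 GC boxes and no TGACG. The Prkaca window is 68.8% G and C, with 2 TGACG cores, 2 GC boxes and 4 CCAAT boxes, while the other Prkaca window held none of the motifs searched. The Pde4b window is 46.0% G and C with 1 TGACG core, and the other 3 windows of Pde4b held none of the motifs searched. In all, 14 windows matched 6 of the 9 genes. The full element TGACGTCA was in 0 of the 14, against 1.55% of 32851 windows of all genes. The core TGACG was in 6 of 14 (17.8% of all windows), GGGCGG in 6 of 14 (32.7%) and CCAAT in 5 of 14 (33.8%), each searched on both strands, where any full element is also counted as a core. Gnas supplies 3 of the 6 windows with TGACG, and 2 of those overlap, so a site there can be counted again. These are matches of letters, with no measurement of binding.

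Among the receptors, the β1 receptor did not pass the test and the α1A receptor fell. Adrb1, which encodes the main β-adrenergic receptor of cardiomyocytes, read 1.68, 1.22, 1.39 and 1.31 in controls and 1.22, 1.0 and 1.21 in KO hearts. The groups only just failed to meet, the lowest control and the highest KO heart both rounding to 1.22. The difference was -0.26 ± 0.15 (SE, adjusted p = 0.229, 95% interval -0.60 to 0.09). Its second, dimmer probe differed by -0.50 (adjusted p = 0.069) and its groups did not overlap either. With the array's row on the slide as a block the dimmer probe passed, at -0.56 (adjusted p = 0.014).

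Adra1a, the α1A receptor, was near the lower limit of the array. It was well above background in 3 of 4 controls, at -2.88, -3.96, -3.09 and -3.52 across the 4, and in 0 of 3 KO hearts, at -4.42, -4.54 and -4.62. Every KO heart lay under every control. The probe passed the filter on dim probes only through the controls, so its count among the falls is no support for a change. Because the KO values are at background, the size is a bound: Adra1a was at least 1.87-fold lower in KO hearts (adjusted p = 0.019, measured group means -3.36 ± 0.48 (SD, n = 4) and -4.53 ± 0.10 (SD, n = 3)). Leaving out 1 heart moved the bound between 1.67 and 2.15. The call was lost without KO replicate 1 (adjusted p = 0.081) and without KO replicate 2, and with normexp background correction, which gave a log2 difference of -0.41 (adjusted p = 0.069), and with no filter on dim probes (adjusted p = 0.058). Under the filter that asks for signal on all arrays Adra1a was not tested.

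Adra1b, the α1B receptor, read 2.36, 2.24, 2.76 and 2.85 in controls and 2.04, 1.97 and 2.28 in KO hearts. The highest KO heart overlapped the lowest control. The difference of -0.46 ± 0.19 (SE) did not pass (adjusted p = 0.104, 95% interval -0.89 to -0.02). A second, dimmer probe of the same transcript fell by 0.80 (adjusted p = 0.045) with no overlap, a call that held in 1 of the 7 fits that left out a heart. With the array row as a block the main probe passed as well, at -0.51 (adjusted p = 0.035).

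None of the 5 other adrenergic receptor genes measured was called, and none passed at an unadjusted p below 0.05. The β3 receptor gene Adrb3 differed by -0.37 (adjusted p = 0.394). Their median was 0.00 and Adra2a was not above background. The marker Th, tyrosine hydroxylase of noradrenaline-making nerve endings, fell by 0.94 (adjusted p = 0.021), the 1 called of 6 neuronal and glial markers, whose summed signal was 45.5 to 66.1 in controls and 46.5 to 55.5 in KO hearts. The Th call was lost without control replicate 4, KO replicate 1 or KO replicate 2. Its part in the receptor values was not tested.

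Gnas, which encodes the stimulatory G protein that couples β-adrenergic receptors to adenylyl cyclase, did not pass the test. Its brightest probe read 6.88, 6.70, 7.34 and 7.19 in controls and 6.44, 6.72 and 6.60 in KO hearts, with KO replicate 2 just inside the control range. The difference was -0.44 ± 0.18 (SE, adjusted p = 0.105), and it passed with the array row as a block (-0.50, adjusted p = 0.023) and without control replicate 2 (adjusted p = 0.048). Gnas makes several transcripts from one locus. The probe for another transcript was above background in 1 of 4 controls and 3 of 3 KO hearts. It differed by 0.51 ± 0.48 (SE, adjusted p = 0.438), or by 0.024 without control replicate 1. Being near background in controls, this probe can show neither a difference nor the lack of one. The remaining probe was at background on all arrays, and averaged over probes the Gnas difference was 0.04.

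Of 13 other G protein subunit genes measured, 3 rose, 0 fell and 10 did not pass, with a median difference of 0.34. Of all named genes 12.3% rose and 15.9% fell, and these shares stand beside the counts of each list below. With the array row as a block, 6 of the 14 subunit genes with Gnas were called higher and 2 lower, and without control replicate 2, 5 higher and 1 lower. Gnai3, an inhibitory α subunit that opposes adenylyl cyclase, rose by 0.84 ± 0.19 (SE, adjusted p = 0.021). It read 2.64, 2.66, 2.10 and 2.12 in controls and 3.32, 3.14 and 3.20 in KO hearts, all KO hearts above all controls. Gna13, another G protein α subunit, rose by 0.64 ± 0.14 (SE, adjusted p = 0.019), and the β subunit gene Gnb1 rose by 0.80 ± 0.25 (SE, adjusted p = 0.0496). These 3 calls were lost without control replicate 4, without KO replicate 1 and without KO replicate 2, and Gnb1 held only without control replicate 2. Among 10 genes of receptor desensitisation, 0 rose and 2 fell: Rgs5, a regulator of G protein signalling that also marks pericytes (-0.83, adjusted p = 0.029), and the receptor kinase gene Grk4 (-0.91, adjusted p = 0.047). Rgs5 held in 2 and Grk4 in 1 of the 7 fits that left out a heart. Grk5, a receptor kinase of cardiomyocytes, differed by 0.58 without passing (adjusted p = 0.089).

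The adenylyl cyclases Adcy5 and Adcy6, the main cAMP-making enzymes of cardiomyocytes, both fell. Adcy5 read 3.20, 3.03, 3.36 and 3.34 in controls and 1.85, 1.80 and 2.29 in KO hearts. The gap between the groups was wider than the spread within either. The means were 3.23 ± 0.15 (SD, n = 4) and 1.98 ± 0.27 (SD, n = 3), a fall of 1.25 ± 0.17 (SE) or 2.38-fold (adjusted p = 0.012, 95% interval -1.64 to -0.87). It had the lowest p of the 9, at rank 134 of the 22344 features. Its other probes fell by 1.41 and 0.86 (adjusted p = 0.012 and 0.013), so all 3 probes of the gene were called in the same direction. The Adcy5 call was lost when KO replicate 1 was left out (adjusted p = 0.063) and held in the 6 other fits that left out a heart.

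Adcy6 read 3.24, 3.07, 3.85 and 3.46 in controls and 2.57, 2.66 and 2.54 in KO hearts. The KO hearts lay close together and under every control. The fall was 0.81 ± 0.19 (SE) or 1.75-fold (adjusted p = 0.024, 95% interval from -1.26 to -0.36), lost without control replicate 4, KO replicate 1 or KO replicate 2 (adjusted p up to 0.097). Within each heart, Adcy6 minus Adcy5 was 0.04, 0.04, 0.49 and 0.12 in controls and 0.72, 0.87 and 0.26 in KO hearts, so control replicate 3 lay above KO replicate 3. The difference of these differences, 0.44, had a two-sided exact permutation p of 0.086 over 35 splits of the hearts, where 0.029 is the smallest possible. An unequal fall of the 2 genes was therefore not shown. That was 1 of 3 pairs compared, and the Benjamini-Hochberg value was 0.086 for each.

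Of 5 other adenylyl cyclase genes measured, 1 fell: Adcy9, a widely expressed cyclase (-0.46 ± 0.12 (SE), adjusted p = 0.033), a call that held in 2 of the 7 fits that left out a heart. Adcy1, a calcium-stimulated cyclase, was above background in 4 of 4 controls and 0 of 3 KO hearts, at least 1.76-fold lower, without passing (adjusted p = 0.055). Across the alternatives its log2 difference ran from -2.22 to -0.45, so the bound did not hold in all of them. Adcy7 differed by 0.40 (adjusted p = 0.342) and Adcy4 by -0.22 (adjusted p = 0.421), and Adcy2, Adcy8 and Adcy10 were not above background. The summed signal of the 7 measured cyclases was 36.2 to 45.7 in controls and 25.3 to 30.2 in KO hearts. The summed signal of 10 cardiomyocyte markers also lay lower, at 4417 to 6320 in controls and 3518 to 4182 in KO hearts, with 5 of the 10 called lower, 0 higher and a median difference of -0.72 (0 of the 10 called without KO replicate 1 and 4 to 7 in the other fits that left out a heart). The part of the cardiomyocyte markers in the falls of Adcy5, Adcy6, Adra1a and Prkaca was not tested.

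**Figure D2:**
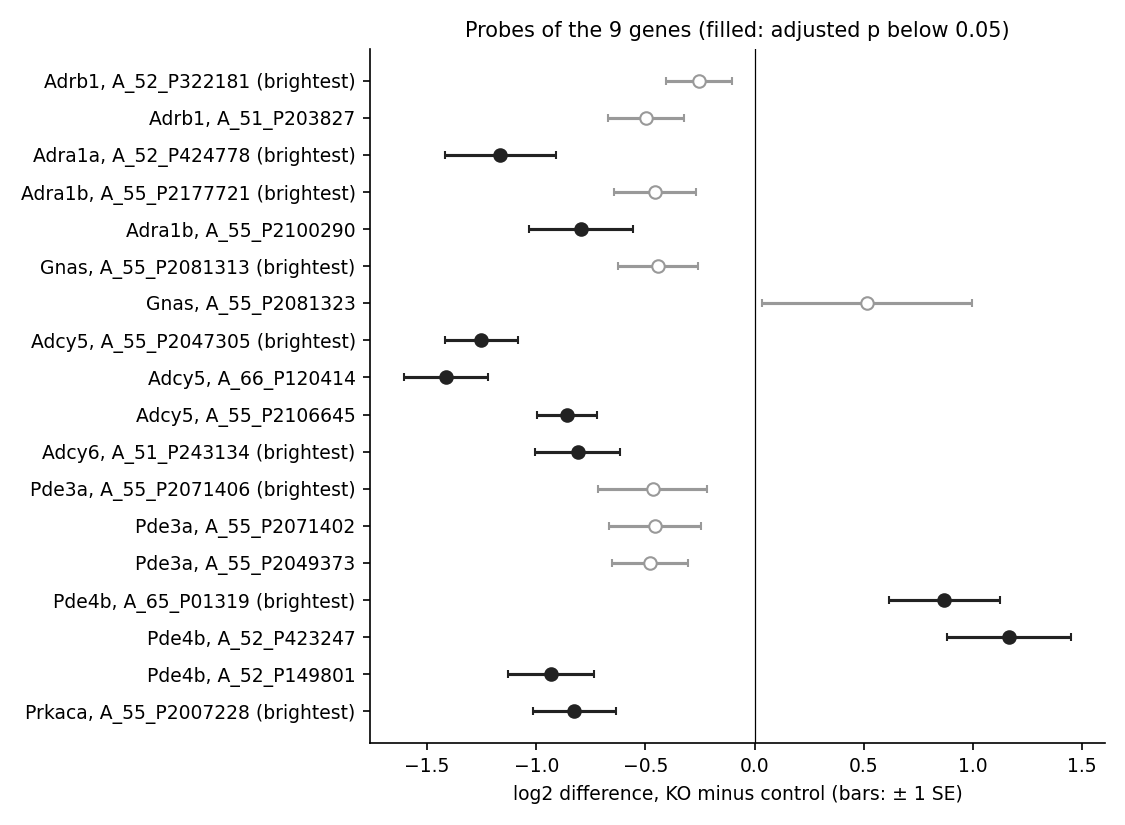
Log2 difference, KO minus control (horizontal axis), of each probe of the 9 genes that was kept, with bars of 1 standard error of the fit; filled points passed an adjusted p of 0.05. The 3 Adcy5 probes lie left of 0 together, while 2 Pde4b probes lie right of 0 and the dimmest one left of it.

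The phosphodiesterases, which degrade cAMP, did not move as one. Pde3a, a cGMP-inhibited phosphodiesterase of cardiomyocytes, read 0.25, 0.05, 0.17 and -0.32 in controls and 0.14, -0.83 and -0.60 in KO hearts. KO replicate 1 lay among the controls. The difference of -0.47 ± 0.25 (SE) did not pass (adjusted p = 0.191, 95% interval from -1.05 to 0.11), and neither did its other probes, at -0.46 (adjusted p = 0.135) and -0.48 (adjusted p = 0.074).

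Pde4b, a cAMP-specific phosphodiesterase also abundant in leukocytes, was the 1 gene of the 9 that rose. Its brightest probe read 0.17, -0.20, 0.47 and 0.52 in controls and 1.34, 1.40 and 0.60 in KO hearts. KO replicates 1 and 2 stood well above the controls, and KO replicate 3 just above the highest control. The rise was 0.87 ± 0.26 (SE) or 1.83-fold (adjusted p = 0.043), a call that held in 1 of the 7 fits that left out a heart, the one without KO replicate 3. A second probe read -1.18, -1.47, -1.17 and -1.43 in controls and 0.39, 0.04 and -0.88 in KO hearts, a rise of 1.17 ± 0.28 (SE, adjusted p = 0.025). Its KO hearts took the same places, with replicate 3 the lowest.

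The third and dimmest Pde4b probe went the other way. It read -2.90, -3.14, -2.62 and -3.05 in controls and -3.61, -4.23 and -3.75 in KO hearts, a fall of 0.93 ± 0.20 (SE, adjusted p = 0.018). It was above background in 4 of 4 controls and in 1 of 3 KO hearts, and with normexp background correction the fall was 0.31. The probe passed the filter on dim probes only through the controls, so its call is no support for a change. The brightest minus the dimmest probe differed by 1.80 between groups, with every KO heart above every control. This pair was chosen after its values were seen and is a description, and the dimmest probe lies near background. All 3 probes carry the same RefSeq transcript in the files, and where they lie within it was not analysed here. Pde4b was 1 of 13 genes, of 3535 with several kept probes, whose probes were called in opposite directions. Averaged over its 3 probes, Pde4b differed by 0.37 and did not pass (adjusted p = 0.198).

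Pde4b minus Pde3a within a heart was -0.07, -0.25, 0.31 and 0.84 in controls and 1.20, 2.22 and 1.20 in KO hearts. The groups did not overlap by this measure. The difference of 1.34 had a two-sided exact permutation p of 0.057 (0.086 after adjustment over 3 pairs). Some leukocyte markers were also higher in KO hearts. Of 8 neutrophil markers measured 6 rose, with a median difference of 3.05. Cxcr2, Mmp8 and Mmp9 were at background in all controls, and Fpr1 was above it in 2 of 4 controls. These genes passed the filter on dim probes only through the KO hearts, so their calls are no support for a change. The median of the list was 1.06 with normexp. Of the 4 markers above background on all arrays 2 rose, with a median of 1.7. S100a8, a neutrophil alarmin, read -1.83, -1.24, -2.08 and -2.13 in controls and 2.24, 2.78 and -0.49 in KO hearts, with KO replicate 3 the lowest of its group, as for Pde4b. KO replicate 3 was also the lowest for the neutrophil markers S100a9, Cxcr2, Mmp8 and Mmp9 and the macrophage marker Cd14. The order differed for the neutrophil marker Fpr1 and for most macrophage markers. KO replicate 3 was the highest KO heart for Fpr1, Mrc1, Fcgr1, Adgre1, Cd68, Csf1r, Lyz2 and Cx3cr1. Cd14 was the only macrophage marker for which it was the lowest. These genes were picked after their values were seen. Ngp was not above background, Ly6g had no value, and the summed neutrophil signal, which includes the bright Csf3r probe, was 114 to 177 in controls and 102 to 178 in KO hearts. Without KO replicate 1 the count of neutrophil markers called fell to 1, and without KO replicate 2 to 2. Of 10 macrophage markers 3 rose (Cd14, Mrc1 and Fcgr1), 0 fell and 7 did not pass, with sums of 111 to 122 in controls and 115 to 162 in KO hearts, and 0 were called without KO replicate 1 and 1 without KO replicate 2. The part of these cells in the Pde4b value was not tested.

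Of 14 other phosphodiesterase genes measured, 0 rose, 5 fell and 9 did not pass, where 15.9% of named genes fell. Their median difference was -0.42. Pde4a, a cAMP-specific enzyme of the same subfamily as Pde4b, read 4.02, 3.81, 3.72 and 4.26 in controls and 2.22, 1.95 and 3.26 in KO hearts, a fall of 1.48 ± 0.31 (SE, adjusted p = 0.018). Here KO replicate 3 was the highest of its group and still under every control. Pde4d, which associates with the ryanodine receptor and with β-arrestin, fell by 0.65 ± 0.17 (SE, adjusted p = 0.028). Pde1c, a calmodulin-dependent phosphodiesterase of cardiomyocytes, fell by 1.33 ± 0.20 (SE, adjusted p = 0.012), and Pde7a, another cAMP-specific enzyme, by 1.39 ± 0.21 (SE, adjusted p = 0.012). The fifth was Pde5a, a cGMP-specific enzyme (-1.58, adjusted p = 0.044), named after its value was seen. The count of falls was 0 without KO replicate 1 and 2 without KO replicate 2. It was 3 without control replicate 1, 3 or 4, and 3 with median centring.

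Prkaca, the main catalytic subunit of PKA, fell. It read -0.21, -0.18, 0.14 and 0.13 in controls and -1.19, -0.86 and -0.52 in KO hearts. Every KO heart lay under every control. The means were -0.03 ± 0.19 (SD, n = 4) and -0.86 ± 0.33 (SD, n = 3), a fall of 0.83 ± 0.19 (SE) or 1.77-fold (adjusted p = 0.022). The call was lost without KO replicate 1, KO replicate 2, control replicate 3 or control replicate 4, with adjusted p up to 0.095. Prkaca has 1 probe, so no second probe bears on it. Of 8 other PKA subunit and inhibitor genes measured, 0 were called by limma, with 1 higher and 2 lower at an unadjusted p below 0.05, and the median difference was 0.12. The inhibitor genes Pkib, Pkig and Pkia differed by 0.60 (adjusted p = 0.050), -0.55 (adjusted p = 0.056) and -0.40 (adjusted p = 0.093).

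Of 10 genes for A-kinase anchoring proteins, which hold PKA at its sites of action, 2 fell and 0 rose. This is near the 15.9% of named genes that fell. Akap1, which anchors PKA at mitochondria, fell by 0.97 ± 0.17 (SE, adjusted p = 0.014). Akap7, which holds PKA near phospholamban and calcium channels, fell by 1.38 ± 0.27 (SE, adjusted p = 0.016). Among 5 genes for EPAC and popeye proteins, which also bind cAMP, Bves fell by 1.09 ± 0.18 (SE, adjusted p = 0.013) and no other was called. Of 6 phosphatase genes that act on PKA sites, 2 fell: Ppp2r3a by 1.59 ± 0.23 (SE, adjusted p = 0.012) and Ppp2r5a by 0.43 (adjusted p = 0.043), both regulatory subunits of protein phosphatase 2A. None of these 5 calls held without KO replicate 1. Akap7 and Ppp2r5a were also lost without KO replicate 2, and Ppp2r5a without control replicate 1, 3 or 4.

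Of 12 genes measured from the PKA substrate list, 9 fell, 0 rose and 3 did not pass, where 15.9% of named genes fell. The median difference was -0.99. The list is of proteins that PKA phosphorylates in cardiomyocytes, but it also holds Atp2a2, the calcium pump that phospholamban restrains. Pln, phospholamban, which restrains the calcium pump until PKA phosphorylates it, read 6.99, 6.45, 7.19 and 7.19 in controls and 3.88, 4.35 and 5.60 in KO hearts, a fall of 2.34 ± 0.39 (SE, adjusted p = 0.013). Even the highest KO heart was under the lowest control. Tnni3, cardiac troponin I, fell by 1.19 (adjusted p = 0.013), and Hspb6, a small heat shock protein, by 1.08 (adjusted p = 0.013). Mybpc3, cardiac myosin-binding protein C, fell by 1.22 (adjusted p = 0.014). The other 5 that fell were Ryr2, Cacna1c, Atp2a2, Fxyd1 and Phka1. Of these 9 genes, Tnni3, Pln and Ryr2 are also among the cardiomyocyte markers given above. The count of falls was 0 without KO replicate 1 and 6 without KO replicate 2, and between 8 and 9 in the other fits that left out a heart.

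Of 16 genes measured from the CREB family and among those that CREB is known to drive, 0 rose, 2 fell and 14 did not pass, with a median difference of 0.14, where 15.9% of named genes fell and 12.3% rose. Ppargc1a, a coactivator of mitochondrial genes, fell by 1.87 ± 0.36 (SE, adjusted p = 0.015). Nr4a3, an immediate early nuclear receptor gene, was above background in 3 of 4 controls and 0 of 3 KO hearts and was at least 1.59-fold lower (adjusted p = 0.010). It passed the filter on dim probes only through the controls, and with normexp its difference was -0.60. Both calls were lost without KO replicate 1, and Ppargc1a without KO replicate 2 as well. Sik1 and Fos, other immediate early genes, differed by 0.78 (adjusted p = 0.059) and 1.47 (adjusted p = 0.067). With normexp both passed (adjusted p = 0.042 and 0.039), and Sik1 passed in 6 and Fos in 3 of the 17 alternatives.

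Over all of these lists, 104 genes other than the 9 were measured, of which 24 fell, 3 rose and 77 did not pass. That is 26.0% called, beside 28.3% of named genes, so the share called was near the background, while the split was 24 lower to 3 higher where named genes had 2184 lower and 1691 higher. The count was 0 without KO replicate 1 (32 at an unadjusted p below 0.05) and 12 without KO replicate 2. No test was made of the lists.

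**Figure D3:**
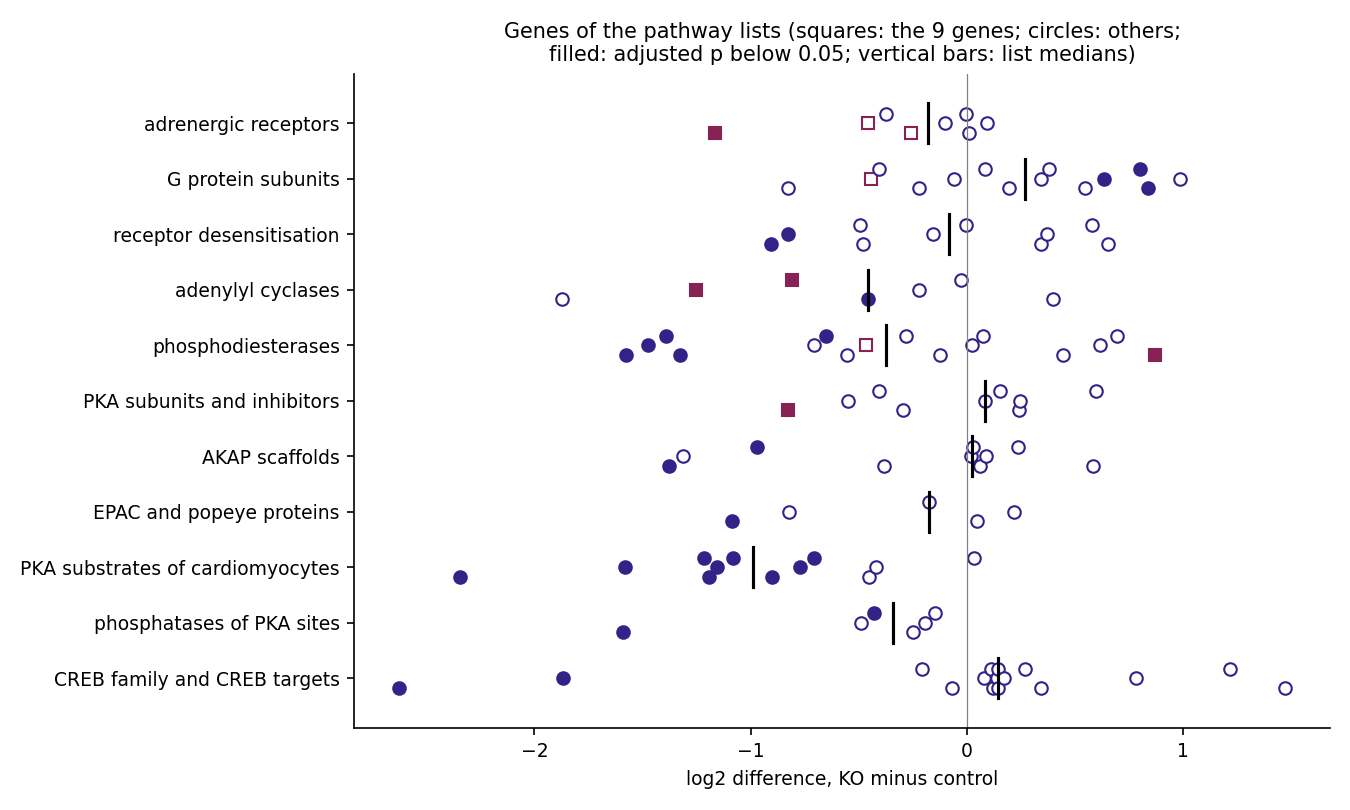
Log2 difference, KO minus control (horizontal axis), of every measured gene in each pathway list (rows), the 9 genes as squares and the others as circles; filled points passed an adjusted p of 0.05, and the bar in each row is the list's median with the 9 genes included. The PKA substrates lie furthest left, with a median of -0.99, and the G protein subunits hold the 3 filled points right of 0 outside the 9 genes.

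Across the 7 hearts, most of the 9 genes followed each other, whether or not they were called, partly because they share the difference between groups. Adcy5 correlated with Prkaca at a Pearson r of 0.96, with Adcy6 at 0.90 and with Pde4b at -0.81. Gnas, not called, correlated with Adcy6 at 0.94 and with Adra1b at 0.90. The search for similar genes covered 12084 named genes well above background on all 7 arrays. It left out the 9, predicted and clone-named genes, and genes of the mitochondrial genome. The nearest to Adcy5 were Fhl2, a LIM protein of heart muscle, at 0.997, and Katnal1 and Miga2, also at 0.997. With the group means removed these were 0.97, 0.99 and 0.97. The nearest to Prkaca were Smarcal1, Nbr1 and Ppargc1b (0.997, 0.997 and 0.995), and the nearest to Adra1a were Abhd10, Sem1 and Coq7 (0.98, 0.98 and 0.98). These are descriptions over 7 hearts that share 1 slide and its scaling.

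Part of the spread within groups followed the row of the array on the slide. The first row held control replicates 1 and 2 and KO replicate 1, and the second row held the other 4 arrays. Each row held different hearts, so the place on the slide and a difference between hearts cannot be told apart. The summed fibroblast markers, for example, were 613 and 608 in control replicates 1 and 2 and 377 and 351 in control replicates 3 and 4. Both controls of the second row lay above both controls of the first for 6 of the 9 genes (Adra1b, Gnas, Adcy5, Adcy6, Pde4b and Prkaca), where this was so for 30.8% of named genes. Within the first and the second row, the KO difference was -1.26 and -1.31 for Adcy5, -0.58 and -1.05 for Adcy6, and -0.99 and -0.83 for Prkaca. It was -1.0 and -1.28 for Adra1a, 1.35 and 0.50 for Pde4b, and -0.23 and -0.24 for Adrb1. For Adra1b it was -0.27 and -0.68, for Gnas -0.35 and -0.60, and for Pde3a -0.01 and -0.64. All 9 kept their direction in both rows, with 1 KO heart in the first. With the row as a block 7 of the 9 were called, 6 lower and 1 higher, Adra1b and Gnas being added, and 8402 features were called in all.

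Few markers of the remaining cell types were called, where 28.3% of named genes were. Of 8 endothelial markers 1 fell (Kdr) and 0 rose, with summed signals of 115 to 165 in controls and 94.3 to 126 in KO hearts. Of 9 fibroblast markers 1 rose (Pdgfra), and their sums of 351 to 613 in controls and 297 to 694 in KO hearts overlapped; the Pdgfra call was lost without KO replicate 1 or 2. Smooth muscle and pericyte markers, 8 in all, had 1 fall (Rgs5) and sums of 68.9 to 120 and 108 to 120. The exception was the erythroid markers, of which 3 of 3 measured fell, with sums of 514 to 723 in controls and 305 to 488 in KO hearts, though 0 were called without control replicate 3 or 4 or KO replicate 1 or 2. The Kdr call was lost without KO replicate 1. None of 4 lymphocyte markers and 2 adipocyte markers was called by limma (1 lymphocyte marker and 0 adipocyte markers at an unadjusted p below 0.05), and Cd3g, Cd8a, Cd79a, Plin1 and Lep were not above background. The part of these cell types in the values of the 9 genes was not tested.

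**Figure D4:**
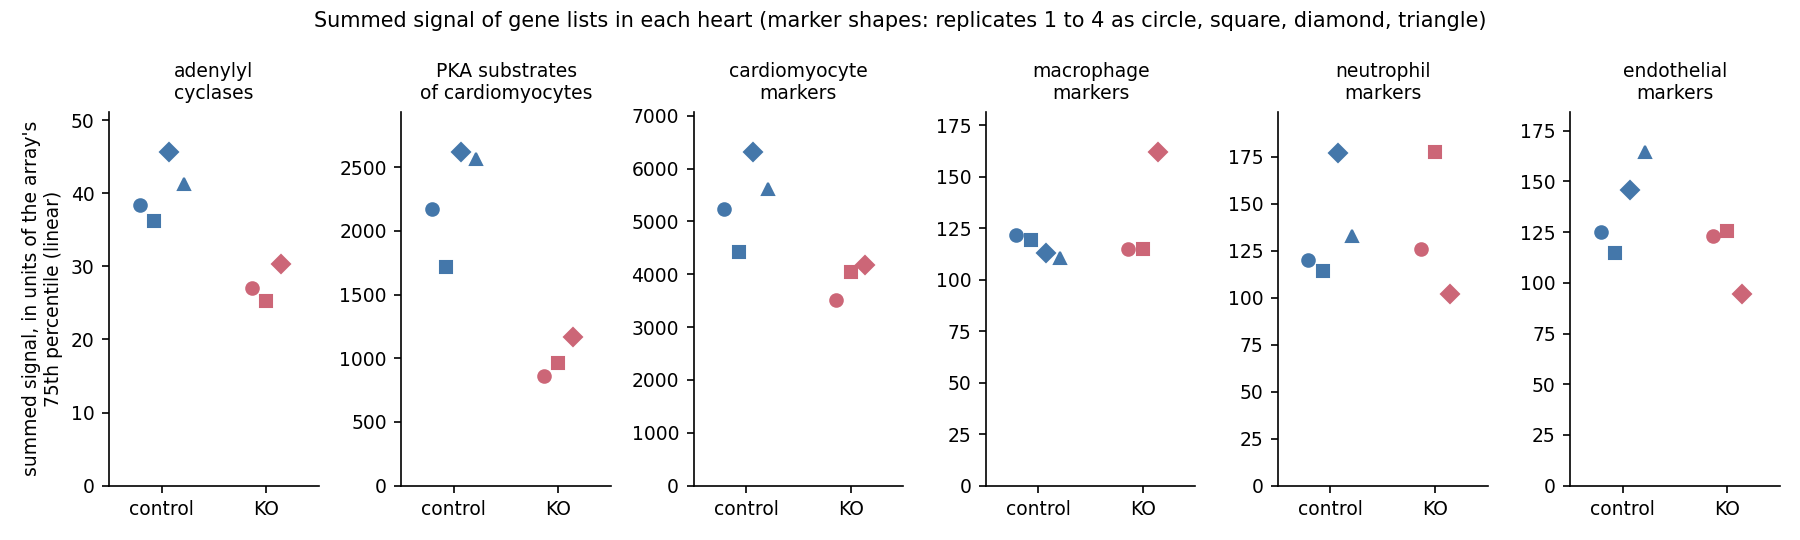
Summed signal, in multiples of each array's 75th percentile (vertical axes, 1 panel per list), of the cyclases, PKA substrates and cell type markers in each control and KO heart. The PKA substrates run from 1716 to 2623 in controls and from 862 to 1170 in KO hearts, and the neutrophil sums overlap.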

How the data were processed

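RNA (100 ng of total RNA per labelling) came from 4 control and 3 KO hearts; a further KO heart that the design mentions was not analysed here. Per the file headers, the authors used Agilent Feature Extraction 11.0.1.1, whose deposited output gives an intensity for 62976 spots (3671 of them controls) as a background-subtracted processed signal. The deposited value table holds log2 values centred on each probe's median over the arrays. Its scale is not stated, and its column medians were 0 except 0.0079 for control 4 and -0.0021 for KO 2.

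The 75th percentile of each array's non-control spots was subtracted from its log2 processed signals, with outlier spots dropped, saturated spots retained and repeated spots of a probe averaged. A probe was kept (26576 were) if 3 or more arrays of a group read it well above background. Through RefSeq transcripts 28026 probes matched 1 symbol and 27655 none. The brightest kept probe stood for a gene, giving 22344 features.

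KO minus control was fitted with limma 3.58.1 (R 4.3.3, lmFit, eBayes), and p-values were adjusted by Benjamini-Hochberg across the features. Where no array of a group was above background, the other group's mean was divided by a floor, taken per array as the larger of its own value and the dimmest probe well above background, and is written as at least N-fold. Such a bound holds for the main background handling only, and normexp gave differences smaller than the bound for Adra1a and Nr4a3. Differences between 2 genes used two-sided exact permutation over 35 splits.

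The 9 genes and all lists were chosen with earlier results of these data known. Beyond the 9, up to 4 genes with the lowest p per pathway list are named, and the 3 genes most like each of Adcy5, Adra1a and Prkaca; others named were chosen after their values were seen. A gene that the rule selects is not reported here. Alternatives were normexp on median spot signals (offset 50), quantile normalization, median centring, other filters, the authors' table, averaged probes, trended robust variance, a block for replicate number or array row, and each heart left out. On simulated data with 22302 features, limma recovered 2.0%, 46.0%, 70.0% and 90.0% of 50 genes changed by 0.5, 1, 2 and 3 (log2), with 5 false among 109 calls. Only 50 features were changed at each size there, where 25.2% of features were called in the data. The adjusted p was therefore harder to pass in the simulation, and its shares recovered are not those of the data.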

Additional observations from a re-analysis of the deposited data

Results flagged for a closer look

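The dimmest of the 3 Adcy5 probes had 1 control apart from the rest. Control replicate 3 read -0.17 where the other 3 controls lay between -0.50 and -0.45, a gap of 0.837 of the group's whole range. Akap5, which anchors PKA near β-adrenergic receptors, had control replicate 4 at -0.06 where the other controls lay between -2.22 and -1.88, a gap of 0.843 of the range. A sample this far from its group was found in 2 of the 64 groups of 4 controls examined, and chance gives about 1 in 20.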

How the results depend on the processing

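The signs of the 9 genes' differences held under every alternative run, except that Gnas averaged over probes was 0.036 instead of -0.44. Without the filter on dim probes, 1415 features, 1 of the 9 genes (Adcy5) and 15 other pathway genes were called, instead of 5640, 5 and 27. The replicate numbers did not pair the hearts: deviations of same-numbered hearts correlated at 0.18, -0.22 and -0.20. With the replicate number as a block, 9 features, 0 of the 9 genes (6 at an unadjusted p below 0.05 in limma) and 0 pathway genes (35 unadjusted) were called. Leaving out 1 heart gave 69 features (without KO replicate 1) to 6970 (without control replicate 2), 0 to 5 of the 9 genes, and 0 to 34 pathway genes; the cause was not tested. Adra1b minus Adra1a, whose difference was 0.71 (two-sided exact permutation p = 0.057), was -0.028 with normexp, and 0.48 to 0.86 with 1 heart left out. Adcy6 minus Adcy5 ran from 0.32 to 0.62 and Pde4b minus Pde3a from 0.997 to 1.55 with 1 heart left out. The other signs that turned were of genes not called: Adra2c, at 0.0092, became -0.058 with normexp and -0.015 with the array row as a block. With 1 heart left out, Adra2c ran from -0.21 to 0.16, Adra2b from -0.037 to 0.21, Popdc3 from -0.0042 to 0.40 and Rapgef3 from -0.31 to 0.033. Of the 21 called pathway genes with the lowest p in their lists, 10 or more kept the call under each alternative except the replicate block and the fit without KO replicate 1, where 0 did. Median centring shifted the median of all features from -0.06 to 0.04. Signals near background limit Adra1a, Adcy1, Nr4a3 and the dimmest Pde4b probe.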
